A study of Mus musculus with 4 samples.

Results

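Genes that encode signals from osteoclasts to other bone cells were followed across wild-type and NFATc1-deficient mouse osteoclast cultures. NFATc1 is the transcription factor that RANK signalling induces to drive osteoclast formation. The 10 genes were Sphk1, S1pr1, Pdgfa, Pdgfb, Efnb2, Sema4d, Tgfb1, Bmp1, Lif and Hgf, and every probe set assigned to 1 of these symbols alone was taken, which gave 22 of the 22690 probe sets on the array. Expression was measured on 4 Affymetrix arrays, 2 per genotype. The wild-type cultures had the genotype NFATc1 fl/fl MxCre- and the deficient cultures NFATc1 fl/fl MxCre+, both on a C57BL/6 background, so that floxed alleles were shared by all 4 and the Cre transgene marked the deficient pair. Cre in these mice is driven by the interferon-inducible Mx promoter, which acts in many cell types, and excision was induced with poly I:C. The sources used here do not say whether wild-type mice also received it, and they give no age. Precursors sorted from bone marrow as CD11b-, CD3e- and B220-negative cells positive for c-Kit and c-Fms were pooled from 3 mice for replicate 1 and 4 mice for replicate 2. They were plated at 20000 cells per well and kept for 3 days in M-CSF and RANKL, the cytokines that turn such precursors into osteoclasts. The p-values below rest on the spread between 2 pooled cultures per genotype. For each probe set the fit also draws on the spread of other probe sets of similar signal.

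In bone remodelling, resorption by osteoclasts is followed by bone formation at the same site, and the signals that link both steps are called coupling factors. Sphingosine 1-phosphate, a lipid made by sphingosine kinases, is released and acts on receptors of osteoblasts and precursor cells, while PDGF-BB, LIF and HGF are secreted proteins that act on cells of the osteoblast lineage. Ephrin-B2 and semaphorin 4D sit in the osteoclast membrane and signal to EphB4 and plexin-B1 on osteoblasts, the former favouring and the latter restraining bone formation. TGF-beta 1 is stored in bone matrix in a latent form and is freed during resorption, and BMP1 is a protease that processes procollagens and latent TGF-beta complexes.

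Values are MAS5 signals on a linear scale, and array medians ran from 111.6 to 130. Changes are NFATc1-deficient minus wild-type on the log2(signal + 23.3) scale, which understates the change of dim probe sets, and a probe set was tested if its mean over the 4 arrays exceeded the 40th percentile of all probe sets, a signal of 62. No detection calls were used here, so background was read from 79 probe sets of 53 genes of tissues foreign to marrow, such as liver, lens and testis. Their 90th percentile was a signal of 59.5, and a group mean at or below it is called near background. Nfatc1 itself was 5433.6 and 6146.7 in the wild-type cultures and 3018.2 and 4097.9 in the deficient cultures (log2 change -0.71, SE 0.15, limma adjusted p = 0.0104), and its adjusted p was 0.0886 without deficient replicate 1 and 0.0613 without the intensity trend. The other tested Nfatc1 probe set, 1425761_a_at, read 2680.7 and 2860.4 in the wild-type and 1718 and 2078.6 in the deficient cultures (-0.55, adjusted p = 0.0129). Its adjusted p was 0.0542 with median scaling of the arrays and 0.0676 without the intensity trend. Without deficient replicate 1 its change was -0.41. Where the Nfatc1 probe sets lie relative to the deleted part was not analysed here. Over all 7798 genes tested, each taken by its brightest probe set, 11.9% fell and 12.9% rose in the deficient cultures. All 8 osteoclast markers measured were lower in the deficient cultures, where their summed signals were 20705 and 27933 against 49261 and 55879 in the wild-type cultures. Of 9 granulocyte markers tested 3 were higher, with summed signals of 5635 and 6340.4 in the wild-type and 16206 and 7748.4 in the deficient cultures. Of 9 macrophage and monocyte markers 2 fell, the M-CSF receptor Csf1r (-0.41) and Cd68 (-0.68), and Cd14 rose (0.54), with summed signals of 24967 and 28026 in the wild-type and 20952 and 20100.3 in the deficient cultures. Of 2 lymphoid markers tested, the interleukin-7 receptor Il7r rose, at 132.1 and 80.5 in the wild-type and 242.4 and 275.5 in the deficient cultures, and the list had summed signals of 596.5 and 414.3 against 687.8 and 641.6. Neither of 2 endothelial markers tested passed. Megakaryocytes and platelets also make PDGF and TGF-beta 1, and 0 of their 5 tested markers passed by limma, with 1, Itga2b, higher at an unadjusted p under 0.05 (0.67, adjusted p = 0.0763). Their summed signals were 983.3 and 700.1 in the wild-type and 884.1 and 836.3 in the deficient cultures. Of 10 stromal and osteoblast markers 7 were near background in both genotypes, among them Col1a1, the main bone collagen chain, at mean signals of 14.3 and 10.6. The 2 tested, Dcn and Col1a2, were above the bound in both genotypes and did not pass. Mean signals in the wild-type and deficient cultures were 150.5 and 172.8 for Dcn and 91.8 and 83.45 for Col1a2. The part of these cell markers in the results was not tested.

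Among the coupling factors, Sphk1, Efnb2, Pdgfb, Sema4d and Tgfb1 each had a probe set that fell in the deficient cultures, and Pdgfa had 1 that rose. Of the 22 probe sets 12 were tested, of which 7 fell, 1 rose and 4 did not pass. Over all 13577 probe sets tested, 11.4% fell and 12.8% rose. The median log2 change was -0.77 over the 12 tested probe sets of these genes and 0.04 over all tested. Taken by the brightest probe set of each gene, 4 of the 8 genes tested fell, 1 rose and 3 did not pass. The shares over all genes, taken likewise, were 11.9% and 12.9%. Sphk1 and both tested Efnb2 probe sets had a deficient mean near background, so that they passed the filter through their wild-type signals. Among the other 9 probe sets 4 fell and 1 rose, with a median of -0.50. Both deficient arrays lay below both wild-type arrays for 9 of the 12, against 28.8% of all tested probe sets, and above them for 1 of the 12, against 34.4%. These 9 included Sphk1 and both tested Efnb2 probe sets, which passed the filter through their wild-type signals. Without deficient replicate 1 the count that fell was 5 and the count that rose was 0. In whole cultures, fewer osteoclasts and less RNA per osteoclast cannot be told apart. Hgf and Bmp1 had no tested probe set, and all 5 of their probe sets were near background in both genotypes. In all, 10 of the 22 probe sets were near background in both genotypes and 3 in the deficient cultures alone.

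**Figure D1:**
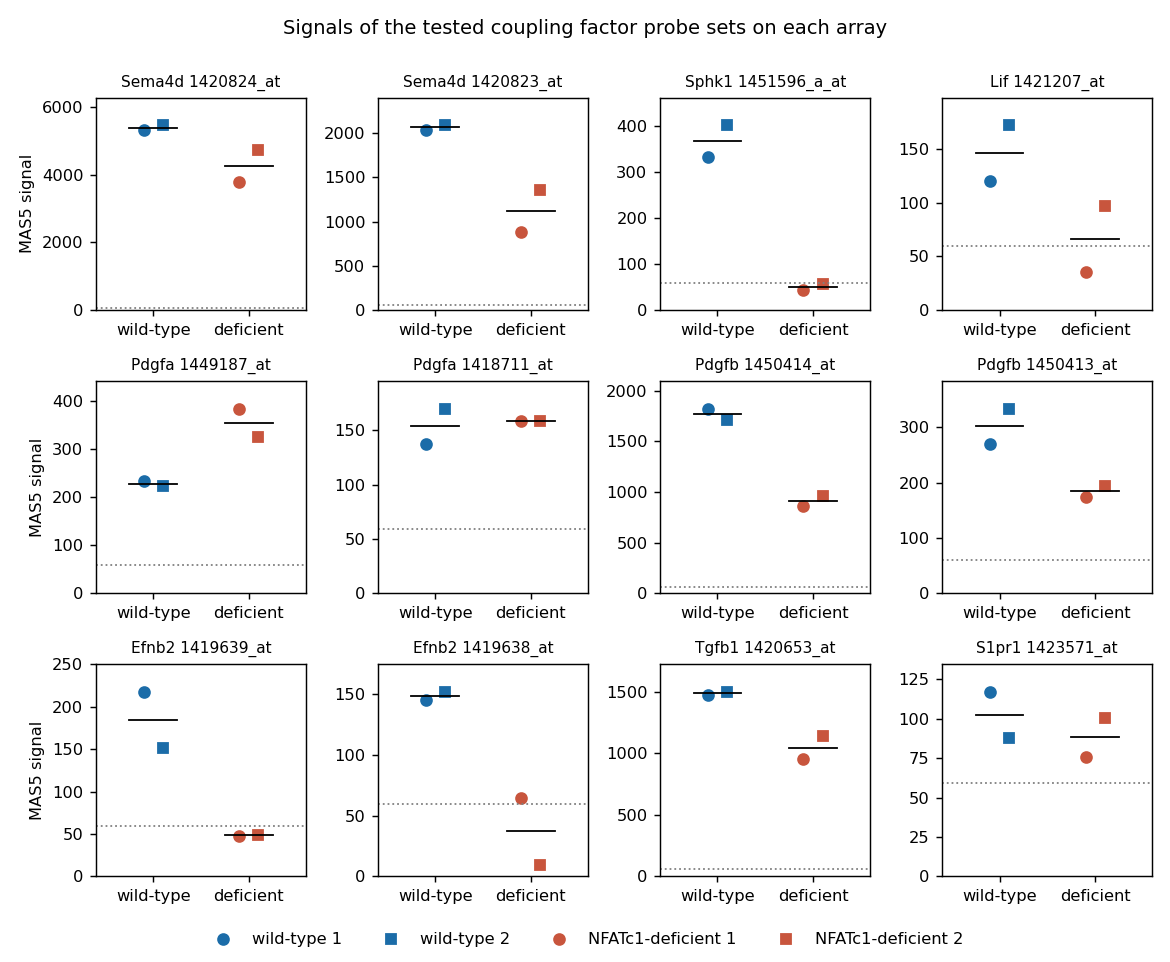
MAS5 signal (linear axis from 0) of the 12 tested probe sets on each array, with circles for replicate 1, squares for replicate 2, bars for group means and a dotted line at the background bound of 59.5. The deficient signals of Sphk1 and of Efnb2 1419639_at lie under the dotted line, and Pdgfa 1449187_at is the panel in which both deficient arrays lie above both wild-type arrays.

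Sphk1, a cytosolic sphingosine kinase, had the largest change of the 12. Its probe set 1451596_a_at read 333 and 400.7 in the wild-type cultures and 43 and 56 in the deficient cultures. The genotypes did not overlap, and both deficient signals were under the background bound. Mean signal fell from 367 ± 47.9 to 49.5 ± 9.19 (SD, n = 2), a log2 change of -2.42 (SE 0.22, 95% interval -2.93 to -1.91, limma adjusted p = 0.000306). The change was -2.43 between the arrays numbered 1 and -2.42 between those numbered 2. Because the deficient mean was near background, the wild-type mean set against the bound gives a signal at least 6.17-fold lower in the deficient cultures. The other Sphk1 probe set, 1420566_at, read 8.1, 4.3, 15.5 and 18.1 on the 4 arrays, all near background, and was not tested.

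The genes whose signals were most like that of Sphk1 over the 4 arrays were Apbb1, Nudt22 and Chchd10. Likeness was the root mean square difference of mean-centred log2 values over the 4 arrays, which was 0.066 for Apbb1, 0.099 for Nudt22 and 0.10 for Chchd10. Their log2 changes were -2.36, -2.31 and -2.24, which the choice by likeness to Sphk1 fixes, and for Sphk1 the deficient side of the distance is near background. These were probe sets with an _x_at or _s_at suffix, a design in which probes can match more than 1 transcript.

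Promoter windows in RefSeq (build GRCm38.p6) were available for 7 of the 10 genes, and the 250 bases before the most upstream start are shown for the 2 genes that fell furthest and for Pdgfa, which rose. Capitals mark GGAAA on either strand, the core letters that NFAT proteins bind. Sphk1 on the plus strand at chr11:116530850-116531099 held 2 matches that directly follow each other, 238 and 233 bases before the start, and Efnb2 on the minus strand at chr8:8661243-8661492 and Pdgfa on the minus strand at chr5:138994945-138995194 held none.
Sphk1: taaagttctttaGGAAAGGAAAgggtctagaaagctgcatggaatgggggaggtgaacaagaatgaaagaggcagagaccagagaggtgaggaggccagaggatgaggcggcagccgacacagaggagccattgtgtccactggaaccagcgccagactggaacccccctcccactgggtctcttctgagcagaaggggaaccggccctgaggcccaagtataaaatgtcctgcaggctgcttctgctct
Efnb2: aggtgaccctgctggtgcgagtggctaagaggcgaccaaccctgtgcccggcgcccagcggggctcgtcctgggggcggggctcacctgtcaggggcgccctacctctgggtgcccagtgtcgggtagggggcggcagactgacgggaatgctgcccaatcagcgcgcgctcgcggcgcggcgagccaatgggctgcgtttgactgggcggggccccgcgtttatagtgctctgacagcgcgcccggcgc
Pdgfa: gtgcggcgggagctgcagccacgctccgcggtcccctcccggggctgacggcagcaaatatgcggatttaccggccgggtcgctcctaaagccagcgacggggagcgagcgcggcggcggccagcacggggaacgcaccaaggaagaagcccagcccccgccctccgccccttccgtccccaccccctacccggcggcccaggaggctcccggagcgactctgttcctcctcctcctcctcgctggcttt
Such a match is common, since 55.6% of all 32851 windows of 250 bases held at least 1. These windows came from 27025 genes, so some genes had more than 1, whereas each coupling gene was read at its most upstream start alone. Among the 7 genes, Sphk1, Sema4d, Lif and Hgf held GGAAA and Pdgfa, Efnb2 and Tgfb1 did not, so the windows of genes that fell were found on both sides. The AP-1 letters TGANTCA, which read the same on both strands, were in the window of Lif alone among the 7, apart from its GGAAA match, and in 6.75% of all windows. The windows of Efnb2 and Pdgfa were 72% and 72.4% G and C, and that of Sphk1 was 55.6%.

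S1pr1, a receptor for sphingosine 1-phosphate that guides osteoclast precursors between blood and bone, read 117 and 87.8 in the wild-type cultures and 75.6 and 100.5 in the deficient cultures. The genotypes overlapped, and the direction differed between the arrays numbered 1 (-0.50) and those numbered 2 (0.16). The change of -0.17 (SE 0.27, 95% interval -0.78 to 0.43, limma adjusted p = 0.689) did not pass, and its interval left room for changes of either sign. All 4 signals were within 2 times the background bound.

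Other genes of the sphingosine 1-phosphate pathway moved in both directions, those that rose being Plpp2, Sgpp1 and Cers5. Of 16 tested genes in a list for this pathway, leaving out Sphk1 and S1pr1, 5 fell, 3 rose and 8 did not pass, with a median change of -0.20. Over all 7798 genes tested, taking the brightest probe set of each, 11.9% fell and 12.9% rose, and the median was 0.03. The second sphingosine kinase, Sphk2, read 719.4 and 802.4 in the wild-type and 334.1 and 372.2 in the deficient cultures, a change of -1.06 (adjusted p = 0.00137), while its dimmer probe set overlapped between genotypes and had a change of -0.04. Spns2, the transporter that carries sphingosine 1-phosphate out of cells, read 661.9 and 706.9 against 52.6 and 105.7, a change of -2.84 (adjusted p = 0.000264). Neither gene overlapped between genotypes at these probe sets, and 1 of the deficient Spns2 signals was under the background bound.

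Breakdown enzymes moved in both directions. The lyase Sgpl1, which cleaves sphingosine 1-phosphate irreversibly, read 1923.2 and 2279.7 in the wild-type and 1017.2 and 1251 in the deficient cultures, a change of -0.88 (adjusted p = 0.00289), with -1.04 at its other probe set. Plpp1, a lipid phosphate phosphatase of the cell surface, fell from 1192.6 and 1142.9 to 71 and 67.8, a change of -3.68. Its relative Plpp2 rose by 0.82, and Sgpp1, a phosphatase of the endoplasmic reticulum that returns sphingosine 1-phosphate to sphingosine, rose by 0.83. On the supply side, acid sphingomyelinase (Smpd1) changed by -1.99 and ceramide synthase 5 (Cers5) rose by 0.37. Acid ceramidase (Asah1, -0.25), Cers2 (0.16), Degs1 (-0.18), Sptlc1 (-0.19) and Sptlc2 (-0.26) did not pass. Among receptors, S1pr4 had a change of 0.25 (adjusted p = 0.491).

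**Figure D2:**
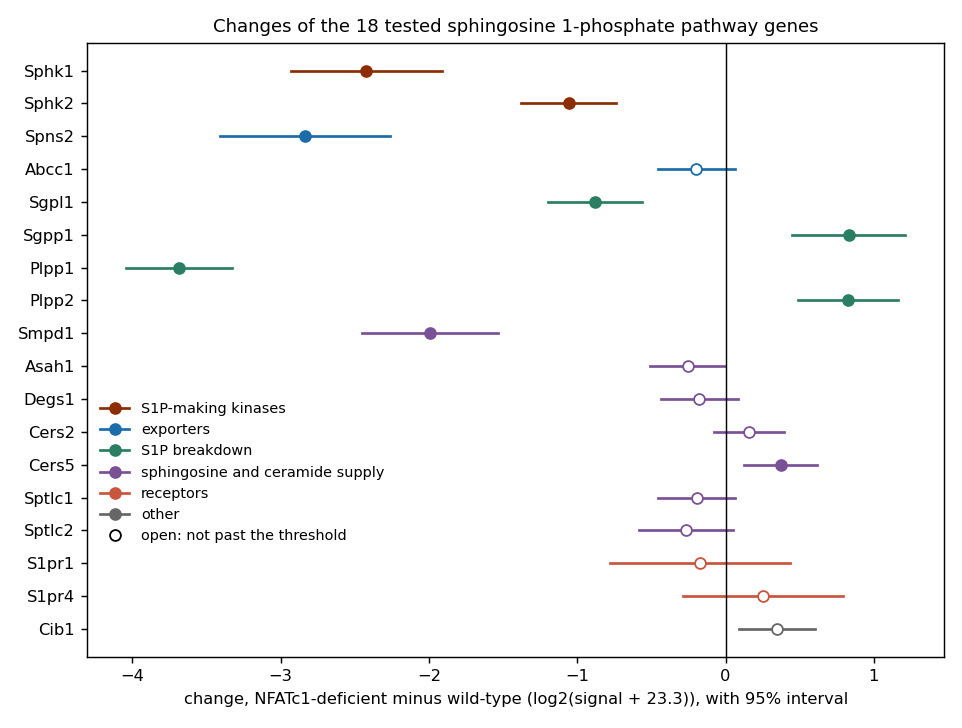
Change in the NFATc1-deficient cultures on the log2(signal + 23.3) scale, with 95% intervals from limma, for the 18 tested genes of the sphingosine 1-phosphate pathway, Sphk1 and S1pr1 included, coloured by role. Filled points are past the threshold, and Plpp1 (-3.68), Spns2 (-2.84), Sphk1 (-2.42) and Smpd1 (-1.99) lie furthest to the left.

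The PDGF chains moved in opposite directions. Pdgfb, whose product forms PDGF-BB, a factor that recruits cells of the vessel and osteoblast lineage, read 1823.2 and 1713.1 in the wild-type cultures and 865.7 and 957.6 in the deficient cultures at probe set 1450414_at. The deficient signals were close to each other and below both wild-type signals. The mean fell from 1768 ± 77.9 to 912 ± 65 (SD, n = 2), that is to 51.6% of wild-type, a log2 change of -0.94 (SE 0.11, 95% interval -1.20 to -0.68, limma adjusted p = 0.000943). The second probe set, 1450413_at, read 269.1 and 333.7 against 173.7 and 194 and fell by 0.64 on the log2 scale (adjusted p = 0.0378). Its call was lost with no filter (adjusted p = 0.0893), without the intensity trend (0.0518) or without wild-type replicate 2 (0.161), deficient replicate 1 (0.166) or deficient replicate 2 (0.0717).

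Pdgfa, the other classical PDGF chain, was the one coupling gene with a probe set that rose. Probe set 1449187_at read 234.2 and 222.5 in the wild-type cultures and 384.3 and 324.2 in the deficient cultures. Both deficient signals were above both wild-type signals, and the mean rose from 228 ± 8.27 to 354 ± 42.5 (SD, n = 2), a log2 change of 0.58 (SE 0.17, 95% interval 0.19 to 0.97, limma adjusted p = 0.0378). This call was lost with no filter (adjusted p = 0.0788), without the intensity trend (0.0530) or without wild-type replicate 2 (0.0803), deficient replicate 1 (0.246) or deficient replicate 2 (0.0584). At the second probe set, 1418711_at, the signals were 137.2 and 170 against 159 and 158.3. These overlapped, with a change of 0.05 (95% interval -0.43 to 0.53, adjusted p = 0.902).

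Receptors for PDGF were near background in these cultures. Pdgfra had mean signals of 33.5 and 21.1 and Pdgfrb of 7.8 and 11.9 in the wild-type and deficient cultures at their brighter probe sets, and Pdgfc, a further ligand, was also near background. Within the list of PDGF and VEGF ligands and receptors, 3 of 7 tested genes fell and 3 rose, with a median of -0.24. Leaving out Pdgfa and Pdgfb 2 of 5 fell and 2 rose. The shares over all genes tested were 11.9% lower and 12.9% higher. Vegfa (-0.97), the main angiogenic factor, and Vegfb (-1.26) fell, whereas Vegfc, which acts on lymphatic vessels, rose from 474.2 and 409.2 to 1541 and 1348.5 (1.66). Placental growth factor (Pgf) rose from 371.8 and 336.1 to 1290.5 and 1190.9 (1.74). The adjusted p of Vegfa was 0.0159, and it was 0.0556 with no filter, 0.0560 without wild-type replicate 2 and 0.0638 without deficient replicate 2. Another Vegfa probe set did not pass (-0.58, adjusted p = 0.101).

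Efnb2, the gene of ephrin-B2, had 4 probe sets, and on each of them both deficient signals were below both wild-type signals. The brightest, 1419639_at, read 217.4 and 151.5 in the wild-type cultures and 47.5 and 49.2 in the deficient cultures. The wild-type arrays differed more from each other than the deficient arrays, which were both under the background bound. The mean fell from 184 ± 46.6 to 48.4 ± 1.2 (SD, n = 2), a log2 change of -1.52 (SE 0.26, 95% interval -2.12 to -0.92, limma adjusted p = 0.00450). Against this bound the mean signal was at least 3.1-fold lower. Probe set 1419638_at read 145.3 and 151.8 against 64.5 and 9.8 and changed by -1.67 (SE 0.43, adjusted p = 0.0234). Its fall rests more on the second deficient array, since without deficient replicate 2 the change was -0.97 (adjusted p = 0.0633). The call was also lost with no filter (0.0818) and when the intensity trend was dropped (0.0608). The remaining probe sets were near background in both genotypes and were not tested, with signals of 56.3, 51.2, 50 and 19.2 for 1449549_at and 44, 40, 4.5 and 9.2 for 1449548_at.

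Signals most like that of Efnb2 1419638_at over the 4 arrays, by the same measure, were those of Adcy3 (0.13), Lfng (0.16) and Arap3 (0.17). The deficient signals of all 3 were under the background bound, at 37.6 and 5.5 for Adcy3, so these distances rest in part on values that are not above background. Adcy3 is an adenylyl cyclase and Lfng a glycosyltransferase that modifies Notch receptors. Efnb1, a second B-type ephrin of osteoclasts, read 471.8 and 466.7 against 275.6 and 279, a change of -0.71 (adjusted p = 0.00945), while its probe set 1451591_a_at overlapped between genotypes (-0.10). Ephb4, the receptor of ephrin-B2 on osteoblasts, was near background, at 6.9 and 4.9 in the wild-type and 5.8 and 8 in the deficient cultures. Of 6 tested ephrins and Eph receptors, 2 fell, Efnb1 and Efnb2 itself, and 4 did not pass (median -0.33), and 13 of the 19 on the array were near background in both genotypes. With 1 averaged value per gene 1 of them fell. None rose by limma, with 0 higher at an unadjusted p under 0.05. For all genes tested the shares were 11.9% lower and 12.9% higher.

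Sema4d, the gene of semaphorin 4D, fell at 1 of its tested probe sets. Probe set 1420823_at read 2039.9 and 2087.8 in the wild-type cultures and 883.9 and 1357.7 in the deficient cultures. The wild-type signals were nearly equal, and deficient replicate 1 was the lower of the deficient pair. The mean fell from 2064 ± 33.9 to 1121 ± 335 (SD, n = 2), a log2 change of -0.90 (SE 0.18, 95% interval -1.31 to -0.49, limma adjusted p = 0.00825), and the adjusted p was 0.0523 without the intensity trend. Without deficient replicate 1 the change was -0.60 (adjusted p = 0.0186). At the brighter probe set, 1420824_at, the signals were 5336.2 and 5469.8 against 3801.2 and 4744.5. The groups did not overlap there either, but the change of -0.35 (SE 0.13, 95% interval -0.63 to -0.06, adjusted p = 0.0788) did not pass. It passed without wild-type replicate 1 (-0.36, adjusted p = 0.0492), and without deficient replicate 1 the change was -0.19 (adjusted p = 0.541). The difference between the 2 probe sets was not tested. Its dimmest probe set, 1434596_at, was near background in both genotypes, with signals of 55.9, 35.5, 7.1 and 18.6.

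Of 14 tested semaphorins, plexins and neuropilins, 2 fell and 12 did not pass, with a median of -0.08, and the share that fell was near the 11.9% of all genes tested. They were Sema7a, a membrane-anchored semaphorin (564.5 and 522.5 against 303.3 and 317.7, a change of -0.76), and Plxnd1, a plexin receptor (2300.9 and 2500.5 against 1120.4 and 1509.3, a change of -0.87). Sema4d was counted here by its brighter probe set, 1420824_at, and so among those that did not pass. None rose by limma, with 0 higher at an unadjusted p under 0.05, and 1 rose without wild-type replicate 1. Cd72, a receptor of semaphorin 4D on immune cells, had a change of -0.14 (adjusted p = 0.458). Plxnb1, its receptor on osteoblasts, and the lipid receptor S1pr2 were not analysed here.

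Tgfb1, the gene of TGF-beta 1, read 1475.7 and 1500.4 in the wild-type cultures and 953.8 and 1139.2 in the deficient cultures. The wild-type signals were close together and above both deficient signals. The mean fell from 1488 ± 17.5 to 1046.5 ± 131 (SD, n = 2), to 70.3% of wild-type, a log2 change of -0.50 (SE 0.12, 95% interval -0.78 to -0.22, limma adjusted p = 0.0186). The adjusted p was 0.0585 with median scaling of the arrays, 0.0747 without the intensity trend and 0.112 without deficient replicate 1.

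Both chains of the TGF-beta receptor fell with their ligand. Tgfbr2, the chain that binds TGF-beta, read 5040.7 and 5527.3 in the wild-type and 800.5 and 1243.2 in the deficient cultures, a change of -2.38 (adjusted p = 0.000159), and at 1425444_a_at it read 530.1 and 622 against 35.9 and 15.6. The deficient mean there was near background, so that mean signal was at least 9.68-fold lower against the bound. The signalling partner Tgfbr1 read 5220.8 and 5045 against 2477.8 and 3251.1, a change of -0.85 (adjusted p = 0.00319), with -1.30 and -1.60 at its other probe sets. Ltbp3, which holds latent TGF-beta in the matrix, changed by -1.32 (adjusted p = 0.0137, and 0.0565 with no filter), and its other probe set did not pass (-1.19, adjusted p = 0.0575). Furin, the convertase that cleaves the TGF-beta precursor, changed by -0.60. In the other direction, Tgfbi, a secreted matrix protein named for its induction by TGF-beta, rose from 3011.5 and 2880.6 to 7422.5 and 7369 (1.32), as did thrombospondin 1 (Thbs1, 1.09), an activator of latent TGF-beta, and the BMP receptor Acvr1 (0.71). Another Thbs1 probe set did not pass (0.49). Among all genes tested 11.9% fell and 12.9% rose. Of 21 tested genes of the TGF-beta and BMP system, 5 fell, Tgfb1 itself among them, 3 rose and 13 did not pass. Their median was -0.05. The count that fell was 3 without deficient replicate 1, and the count that rose was 5 without wild-type replicate 1.

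Bmp1 was near background throughout, and its 3 probe sets ranged from 2.3 to 21 in the wild-type and from 9.5 to 41.3 in the deficient cultures. The highest of these, 41.3, was a single deficient array at 1427458_at, where the other deficient array read 9.5. Genotypes overlapped at each of the 3 probe sets, and none was tested.

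Lif, the gene of leukemia inhibitory factor, a cytokine of the interleukin-6 family, read 120 and 172.2 in the wild-type cultures and 35.4 and 96.9 in the deficient cultures at 1421207_at. The genotypes did not overlap, and deficient replicate 1 was under the background bound. The mean was 146 ± 36.9 in wild-type and 66.2 ± 43.5 in deficient cultures (SD, n = 2), a log2 change of -0.99 (SE 0.36, 95% interval -1.82 to -0.17, limma adjusted p = 0.0807) that did not pass. It passed without wild-type replicate 1 (-1.22, adjusted p = 0.0232) and without deficient replicate 2 (-1.51, adjusted p = 0.0173), and without deficient replicate 1 the change was -0.48 (adjusted p = 0.419). Its other probe set, 1450160_at, read 7.6, 31.5, 9.5 and 6.3 and was near background.

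The LIF receptor Lifr was near background at all 3 of its probe sets, with signals of at most 17.2 on any array, whereas the shared signalling chain Il6st (gp130) was above it, with a change of 0.07 (adjusted p = 0.804) and of -0.040 without deficient replicate 1. By brightest probe set, 11.9% of all genes tested fell and 12.9% rose. Of 11 tested genes of this cytokine family, 1 rose, 0 fell and 10 did not pass by limma, with a median of 0.02. At an unadjusted p under 0.05, 2 were lower and 1 higher. Without wild-type replicate 1, 1 gene of this list fell and 2 rose, and without deficient replicate 2, 1 fell. The gene that rose was Socs3, the feedback inhibitor of gp130 signalling. It read 146.2 and 92.1 in the wild-type and 647.5 and 510.3 in the deficient cultures at 1455899_x_at (2.10), and 1456212_x_at rose by 1.47. Both have the _x_at suffix, and 1416576_at, which has not, did not pass (0.77, adjusted p = 0.0812).

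Hgf, the gene of hepatocyte growth factor, was near background at both probe sets. Probe set 1451866_a_at read 36.5 and 35.4 in the wild-type and 38.1 and 39.3 in the deficient cultures, and 1425379_at read 61.2 and 30 against 17.9 and 26. Neither was tested. Its receptor Met was well above the bound, at 428.8 and 493.7 against 359.1 and 436.3, and overlapped between genotypes with a change of -0.21 (adjusted p = 0.398). Mst1r, the receptor of the related macrophage-stimulating protein, read 819.1 and 895.3 against 9.3 and 88.6, a change of -3.86 (adjusted p = 0.000943). The deficient mean was near background, but deficient replicate 2, at 88.6, was above the bound. The wild-type mean was 14.4-fold the bound, which is therefore not a lower limit for each array. Of 8 tested genes of this system, 2 fell and 1 rose, with a median of 0.10, against 11.9% and 12.9% of all genes tested. Besides Mst1r these were the protease inhibitor Spint1 (-0.94) and the urokinase receptor Plaur (0.86). Spint1 did not pass without wild-type replicate 1 (adjusted p = 0.110) or deficient replicate 1 (0.188).

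**Figure D3:**
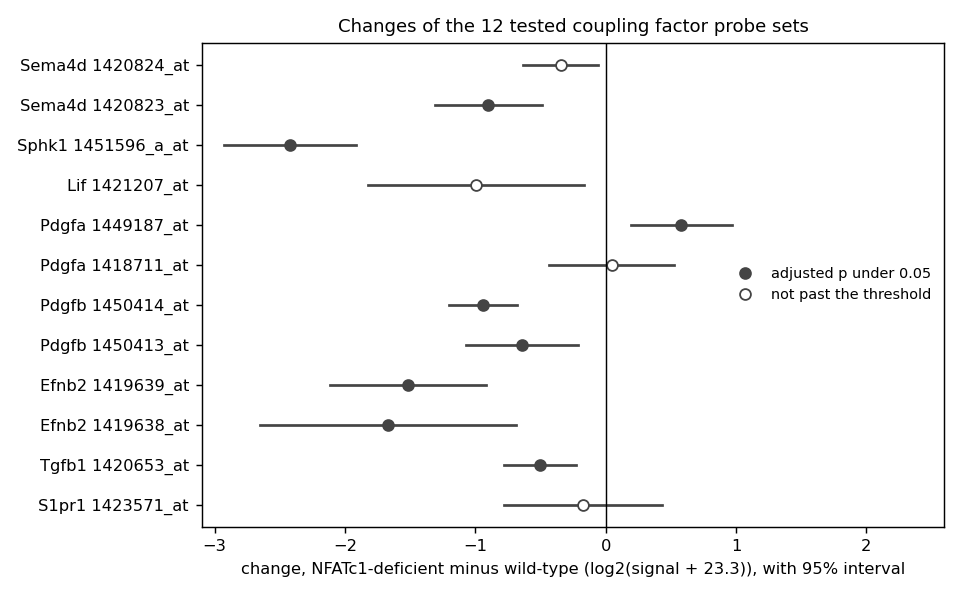
Change of the 12 tested coupling factor probe sets in the NFATc1-deficient cultures on the log2(signal + 23.3) scale, with 95% intervals from limma. Filled points have an adjusted p under 0.05 and run from -2.42 for Sphk1 to 0.58 for Pdgfa, and open points did not pass.

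A further list held other secreted and signalling genes considered as osteoclast-derived factors. Of these 7 were tested, 3 fell, 1 rose and 3 did not pass (median -0.33), while 11.9% of all genes tested fell and 12.9% rose. Besides Vegfa, the secreted glycoprotein Creg1 read 3483.2 and 3564.1 in the wild-type and 2132.7 and 2428.6 in the deficient cultures (-0.63), and galectin-8 (Lgals8) read 1482.8 and 1603.9 against 715.4 and 786.6 (-1.02). Agrin (Agrn), a matrix proteoglycan, rose from 206.2 and 207 to 376.9 and 469.9 (0.95). Of the 21 genes of this list on the array, 10 were near background in both genotypes, among them Wnt10b, Slit3 and Sost. The count that rose was 2 without wild-type replicate 1.

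**Figure D4:**
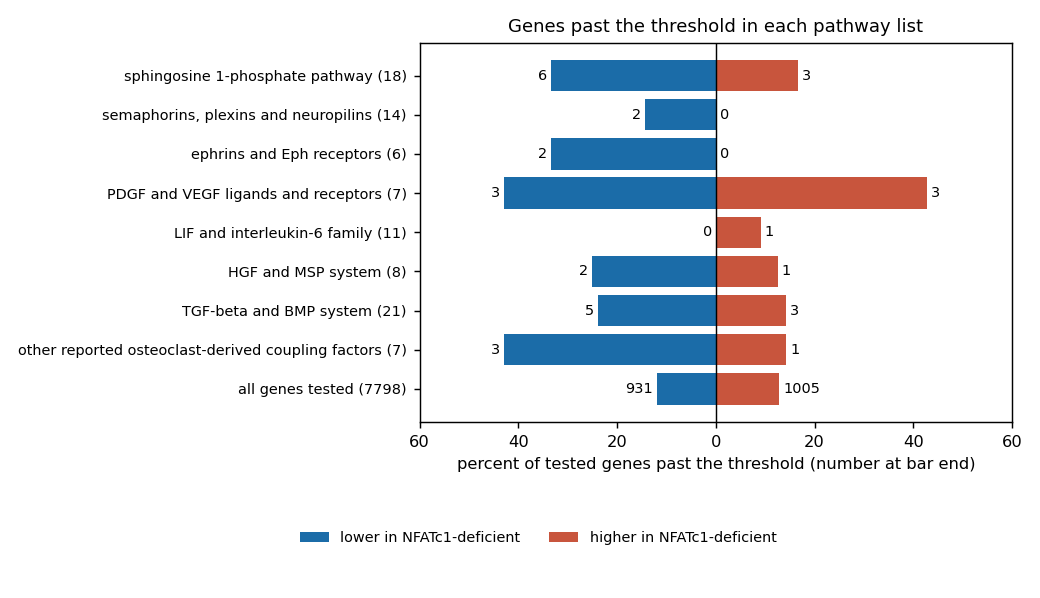
Percent of tested genes past the threshold in each pathway list, lower to the left and higher to the right, with numbers of genes at the bar ends, numbers tested in parentheses and all 7798 genes in the bottom row. The sphingosine 1-phosphate list has 6 lower genes, Sphk1 among them, and 3 higher genes, and the semaphorin and ephrin lists have 0 higher genes.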

How the data were processed

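Per the submitters' processing notes, the authors used MAS5, and the deposited intensities were linear probe set signals scaled per array. Each array had a mean, without the top and bottom 2%, between 500.186 and 500.211. No MAS5 version or detection call was among the sources used here, and the number of arrays limits the precision. Gene names came from the platform annotation: 20393 probe sets had 1 gene symbol, 691 several and 1606 none, and names were checked by Entrez number against RefSeq (20364 matched, 0 changed). The 64 control probe sets were left out. Signals were taken as log2(signal + 23.3), 23.3 being the 25th percentile of all values, and the 13577 probe sets whose mean exceeded the 40th percentile were fitted with limma 3.58.1 in R 4.3.3 (lmFit, eBayes with an intensity trend, two-sided, Benjamini-Hochberg over all tested, threshold 0.05). Every adjusted p comes from this fit unless another setting is named. Genes in lists were counted by their brightest tested probe set. Named in each list were up to 4 genes past the threshold with the largest change, and receptors and partners of the coupling factors whatever their values. A few others (Abcc1, Plpp2, Sgpp1, Cers2, Cers5, Asah1, Degs1, Sptlc1, Sptlc2, S1pr4, Furin, Acvr1, Wnt10b, Slit3, Sost) were named after their values were seen. The genes and lists were chosen with earlier results of these data known. The fit was tested on simulated data. Alternatives covered scaling, pseudocount, filter, variance trend, a replicate block, each array left out, and the background bound.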

Additional observations from a re-analysis of the deposited data

How the results depend on the processing

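The coupling factor count of 7 that fell was 7 with either scaling and with a pseudocount of 1 or 100, 6 without a filter and 3 without the intensity trend. With a filter at the 60th percentile it was 4, because Sphk1 and the Efnb2 probe sets were then not tested. Leaving out single arrays gave 5 to 9 that fell and 0 to 1 that rose. The count that rose was 0 without a filter and 0 without the intensity trend, and 1 under the other settings with all arrays. Sphk1 passed in each of the 11 alternatives that tested it, with -2.87 at a pseudocount of 1 and -1.64 at 100, and Pdgfb 1450414_at passed in all 12. Of 138 values for the coupling factor probe sets under alternatives, 1 changed sign, that of Pdgfa 1418711_at (-0.087 without wild-type replicate 1, and up to 0.18 with single arrays left out). Lif 1421207_at also passed with median scaling (adjusted p = 0.00280), although its change there, -0.99, was that of the main fit. Il6st ran from -0.040 without deficient replicate 1 to 0.18 without deficient replicate 2. Over all probe sets, 937 to 1541 fell and 840 to 1953 rose when single arrays were left out, and the count that rose was 1157 without a filter and 990 without the trend. With replicate number as a block, 9 of the coupling factor probe sets fell, Sema4d 1420824_at (adjusted p = 0.0269) and Lif (0.0275) among them, and over all probe sets 1799 fell and 2048 rose. Deviations of arrays with the same number correlated at 0.13 across probe sets, and with 2 pairs the numbers were not taken to pair the cultures. With the background bound at the 75th percentile of the reference genes 5 probe sets were near background in both genotypes, with bacterial poly-A controls 4, and with the 95th percentile 10. The causes of these differences were not tested.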
